A study of Mus musculus with 22 samples.

Results

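The genes described here are 10 of the 24454 gene symbols counted in the series: Atf4, Ddit3, Trib3, Asns, Phgdh, Psat1, Psph, Shmt1, Shmt2 and Mthfd2. They were chosen by name, as the amino acid stress factor ATF4 with a pair of its stress partners and the enzymes that make asparagine, serine and one-carbon units. RNA was sequenced from 22 libraries of 25 cells each, sorted as VE-cadherin positive from the aorta-gonad-mesonephros (AGM) of C57BL/6 mouse embryos, the region where the dorsal aorta gives rise to the first haematopoietic stem and progenitor cells. The cells were split by surface CD44 and Kit into CD44Neg, labelled as endothelial (10 libraries, 4 from E9.5 and 3 each from E10 and E11), CD44LoKitNeg, labelled as hemogenic endothelial (6 libraries, 1 from E9.5, 2 from E10 and 3 from E11), CD44LoKitPos, labelled Pre-HSPC (3 libraries, 1 from E9.5 and 2 from E10), and CD44High, labelled HSPC (3 libraries, all at E11). No group carried a mutation or a treatment. The date in the sample labels changed with the stage, so that stage and date cannot be told apart, and nothing in the labels ties the libraries to separate embryos.

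ATF4 is a transcription factor whose protein is made mainly through translation of its mRNA when eIF2alpha is phosphorylated, as happens when amino acids run short or the endoplasmic reticulum is stressed. It binds sites of the kind TGATGNAA in front of genes for amino acid synthesis and transport. Its mRNA level therefore says little about the amount of active protein, which was not measured here. ASNS makes asparagine from aspartate and glutamine, PHGDH, PSAT1 and PSPH turn a glycolytic intermediate into serine in successive steps, SHMT1 in the cytosol and SHMT2 in mitochondria split serine into glycine and a one-carbon unit, and MTHFD2 passes that unit along the mitochondrial folate pathway, which feeds nucleotide synthesis in dividing cells.

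The promoter windows of the genes, from 250 bases before to 50 bases after the RefSeq start (GRCm38.p6, the same assembly as mm10), were searched on both strands for the letters TGATGNAA. All 10 genes had a window, and 2 genes held a match, Asns and Trib3, against 3.97% of all 32851 windows. The 30 bases around each match are shown because they are the places in these windows where the letters of an ATF4 site stand, with the match in capitals. The Asns stretch lies at chr6:7693214-7693243 and the Trib3 stretch at chr2:152344028-152344057, both genes being on the minus strand, and each is written 5′ to 3′ along the gene. In Asns the match starts 23 bases upstream of the RefSeq start, at a place that the GENCODE annotation counts as exon. In Trib3 it is on the opposite strand and starts 14 bases downstream of the RefSeq start, outside the GENCODE exons.
Asns: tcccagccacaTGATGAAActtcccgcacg
Trib3: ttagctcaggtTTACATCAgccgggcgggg
A match is only a match of letters, and the absence of these letters from the windows of the other 8 genes says nothing of ATF4 binding there.

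Between 3912350 and 8657546 reads were counted per library. Levels are given as normalized CPM, in which each library's counts are divided by its total and by a TMM scaling factor, and a count of 0 allowed up to 3 counts, or 0.348 to 0.813 CPM depending on the library. This limit covers counting error only, since the reads carry no molecular identifiers. The labelled identities were set against marker genes fixed for each cell type. The 7 endothelial markers summed to 3085 to 5047 CPM in CD44Neg, 3306 to 7389 in CD44LoKitNeg and 531 to 1565 in CD44LoKitPos, but to 14.1 to 65.1 in CD44High, where Cdh5, the gene of the VE-cadherin used for sorting, had no count. The 7 macrophage markers summed to 1564 to 4323 CPM in CD44High and at most 52.9 elsewhere, and C1qa, C1qb, C1qc and Adgre1 were at 0 in all libraries of the other 3 populations. In the sum of 8 proliferation markers the medians were 2107 CPM in CD44Neg, 1024 in CD44LoKitNeg, 2518 in CD44LoKitPos and 3250 in CD44High. The 7 blood markers summed to 0 to 35.6 CPM in CD44Neg, 4.49 to 231.6 in CD44LoKitNeg, 368 to 776 in CD44LoKitPos and 723 to 888 in CD44High. CD44Neg replicate 6 stood apart as a library, with 10825 genes detected against 11307 or more elsewhere, 1.92% of its counts from the ribosomal RNA gene Rn45s against 6.82% or more, and a chi-square per degree of freedom of 61.1 to 85.2 against its E9.5 replicates, which had 17.1 to 20.4 among themselves. What part these markers have in the differences below was not tested.

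**Figure D1:**
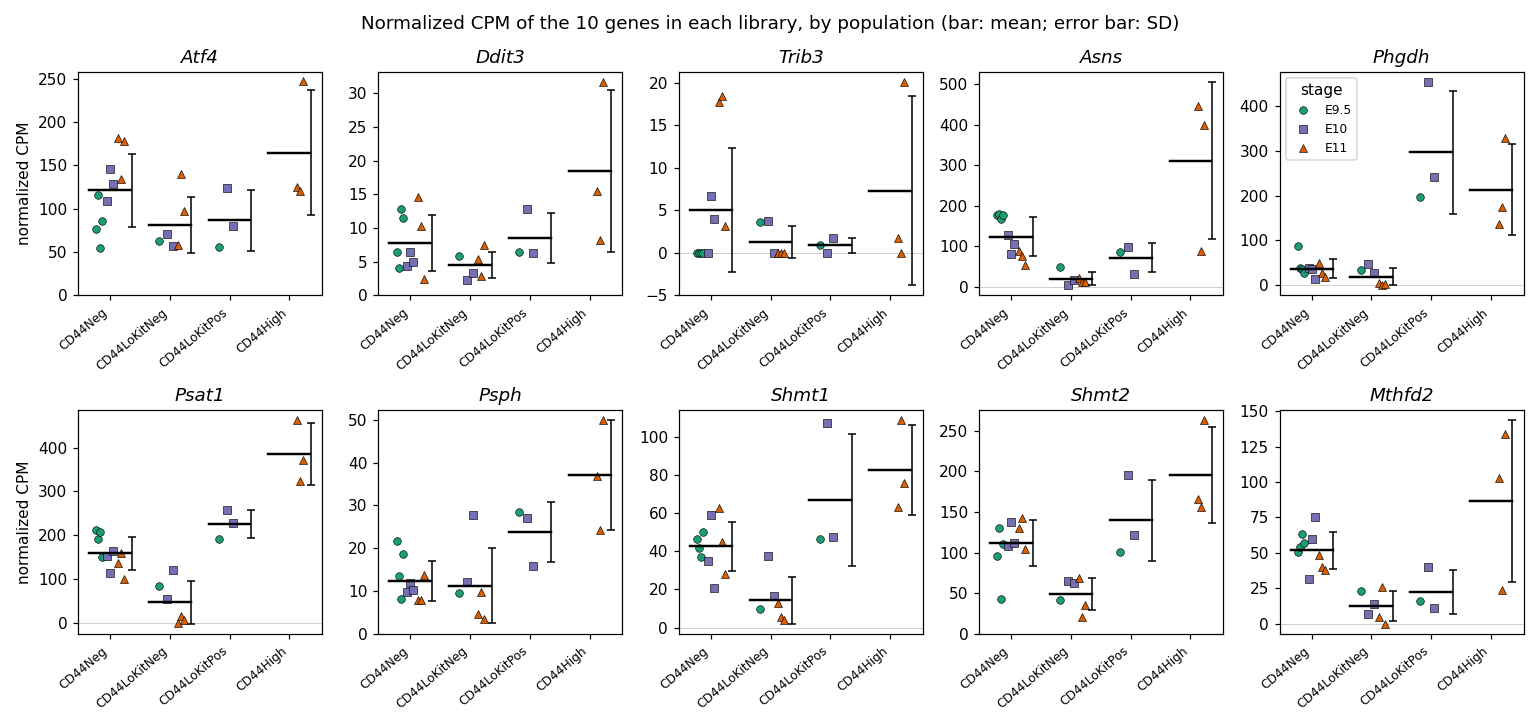
Normalized CPM of each of the 10 genes (vertical axes) in each of the 22 libraries, by population (horizontal axes). Points are libraries, with shape and colour for the stage, horizontal bars are means and error bars are SD. Asns and Mthfd2 in the 6 CD44LoKitNeg libraries lie below all 10 CD44Neg libraries, and Phgdh in the 3 CD44LoKitPos libraries lies above all CD44Neg and CD44LoKitNeg libraries.

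The first comparison asked how the genes differ between the endothelial populations that CD44 separates. Asns and Shmt2 were lower in CD44LoKitNeg than in CD44Neg, and these were the 2 of 10 genes called, against 10.2% of the 11022 genes tested. Calls were made at an adjusted p under 0.01 by the quasi-likelihood test of edgeR, with the Benjamini-Hochberg method applied to every gene tested. The fitted log2 fold change was below 0 for all 10 genes, with a median of -1.37 beside 0.01 over all genes tested. The 7 neural markers summed to 30.4 to 117 CPM in CD44Neg and 6.98 to 22.9 in CD44LoKitNeg, without overlap, of which Nes, the gene of nestin, made up most and was called lower (-2.02, SE 0.36, adjusted p = 0.000547), while Sox10 and Neurog1 were at 0 in both. The part of these markers was not tested. In bulk libraries, fewer cells that express a gene and less RNA per cell cannot be told apart.

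Asns is the gene of asparagine synthetase. It was 54.8 CPM in the lowest CD44Neg library, 116 at the median and 180 in the highest, with a mean of 124 ± 48.3 (SD, n = 10). In CD44LoKitNeg it was 4.36, 14.8 and 49.7 CPM, with a mean of 19.7 ± 15.9 (SD, n = 6). The highest CD44LoKitNeg library, the only one from E9.5, thus stayed below the lowest CD44Neg library, which came from E11. The log2 fold change was -2.64 (SE 0.42, adjusted p = 0.000212 by edgeR). The call held without any 1 library, and the adjusted p was 0.0104 in the E11 libraries alone and 0.0571 in the E10 libraries alone, with log2 fold changes of -2.16 and -3.23.

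Of the 3 one-carbon enzymes, Shmt2 was called. It was 43.4 to 142 CPM in CD44Neg with a median of 111, and 20.9 to 69.2 in CD44LoKitNeg with a median of 51.8. The 2 ranges overlapped through a single CD44Neg library, replicate 6 from E9.5 at 43.4 CPM. Its log2 fold change was -1.18 (SE 0.27, adjusted p = 0.00369 by edgeR), without that library it was -1.25 (adjusted p = 0.00094), and the call was lost without CD44LoKitNeg replicate 13 (-1.11, adjusted p = 0.0113) and within E11 (-1.53, adjusted p = 0.0448) or E10 (-0.84, adjusted p = 0.166) alone. Mthfd2 did not overlap between the populations, with 31.1 to 75.6 CPM in CD44Neg and 0 to 26 in CD44LoKitNeg, but missed the threshold (log2 fold change -2.06, SE 0.57, adjusted p = 0.0141 by edgeR). Without CD44LoKitNeg replicate 12 or 13 its adjusted p was 0.00964 or 0.00262, it was 0.00148 by DESeq2, 0.00658 by voom and 0.00743 with thinned counts, and replicate 13 is the library in which it had 0 counts. Shmt1, the cytosolic enzyme, was 21 to 62.5 CPM in CD44Neg and 3.87 to 37.4 in CD44LoKitNeg (log2 fold change -1.56, SE 0.41, adjusted p = 0.0103 by edgeR). It passed the threshold without CD44LoKitNeg replicate 15 (0.000795) or CD44Neg replicate 10 (0.00945), with stage as a covariate (-1.73, 0.00628), in a fit of all 22 libraries (0.00689), and by DESeq2 (0.00137) and voom (0.00216). Within single stages it was not called, at -2.53 in E11 (0.0297) and -0.42 in E10 (0.791), nor was Mthfd2, at -1.98 in E11 (0.354) and -2.37 in E10 (0.108). Libraries of the 2 populations did not overlap for 2 of the 10 genes, Asns and Mthfd2, beside 5.58% of all genes tested.

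None of the 3 serine synthesis genes was called. Psat1, the aminotransferase of the middle step, was 100 to 213 CPM in CD44Neg and 0 to 121 in CD44LoKitNeg (log2 fold change -1.76, SE 0.66, adjusted p = 0.064). By voom it was -3.62 (0.00676), in the E11 libraries alone -4.20 (0.0298) and in the E10 libraries alone -0.63 (0.438). Phgdh, which catalyses the first step, was 13.4 to 87.4 and 1.42 to 47.3 CPM (-0.94, SE 0.61, adjusted p = 0.305). Psph, the phosphatase of the last step, was 7.94 to 21.6 and 3.41 to 27.7 CPM (-0.13, SE 0.45, adjusted p = 0.879). The stress factors were not called either. Atf4 itself was 54.7 to 182 CPM in CD44Neg and 56.8 to 140 in CD44LoKitNeg (-0.57, SE 0.26, adjusted p = 0.138). Ddit3, the stress-induced transcription factor CHOP, was 2.48 to 14.6 CPM in CD44Neg and 2.35 to 7.43 in CD44LoKitNeg (-0.77, SE 0.56, adjusted p = 0.368). Trib3, a pseudokinase induced by ATF4 and CHOP, had 0 counts in 5 of the 10 CD44Neg and 4 of the 6 CD44LoKitNeg libraries (-2.02, SE 1.62, adjusted p = 0.427). Over the alternative fits its log2 fold change ran from -9.30 to -0.27, and none called it. At E11 it was 17.7, 18.5 and 3.1 CPM in CD44Neg and had 0 counts in all 3 CD44LoKitNeg libraries.

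**Figure D2:**
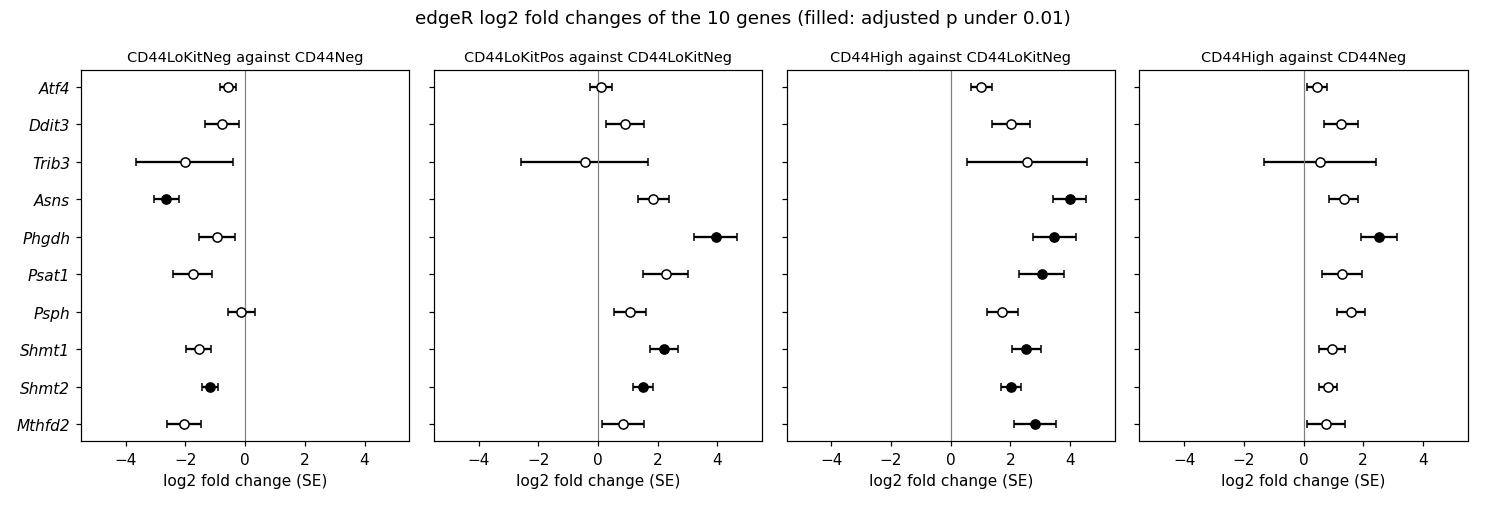
edgeR log2 fold changes (horizontal axes) of the 10 genes (rows) in 4 comparisons of populations, with error bars of 1 SE and filled points for an adjusted p under 0.01. In CD44LoKitNeg against CD44Neg all points lie left of 0 and 2 are filled, and in CD44High against CD44LoKitNeg all lie right of 0 and 6 are filled.

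CD44LoKitPos was compared with CD44LoKitNeg to follow the genes from cells labelled as hemogenic endothelium to those labelled as Pre-HSPC. Phgdh, Shmt1 and Shmt2 were higher in CD44LoKitPos, 3 of 10 genes, where 4.26% of the 12949 genes tested were called. Of the 552 genes called, 330 were higher and 222 lower, but 218 and 273 with DESeq2's size factors, which moved the median of all genes from -0.02 to -0.16 on the log2 scale, while the 3 genes stayed called. Phgdh was 453, 241 and 197 CPM in the CD44LoKitPos libraries, against 1.42 to 47.3 in CD44LoKitNeg. Its mean of 297 ± 137 (SD, n = 3) was 15.4 times the CD44LoKitNeg mean, and the fitted log2 fold change was 3.94 (SE 0.72, adjusted p = 0.00168 by edgeR). Shmt1 was 107, 47.5 and 46.3 CPM in CD44LoKitPos (log2 fold change 2.22, SE 0.48, adjusted p = 0.00477). Shmt2 was 196, 122 and 101 CPM (1.52, SE 0.33, adjusted p = 0.00531). In each of these genes replicate 17, from E10, was the highest CD44LoKitPos library.

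The libraries did not overlap for these 3 genes and for Psat1, 4 of 10 beside 16.9% of all genes tested. Psat1 was 258, 227 and 192 CPM in CD44LoKitPos (log2 fold change 2.27, SE 0.75, adjusted p = 0.0469 by edgeR). Over the alternative fits its log2 fold change ran from 1.33 to 4.17, the highest being that of voom (adjusted p = 0.00246). Asns was 98.2, 30.9 and 86.5 CPM in CD44LoKitPos, of which 1 library lay within the CD44LoKitNeg range (1.86, SE 0.53, adjusted p = 0.0234), and without CD44LoKitNeg replicate 14 it passed the threshold (2.38, adjusted p = 0.0035). Mthfd2, with 40.3, 10.7 and 15.8 CPM, and Psph, with 27.1, 15.7 and 28.3 CPM, overlapped with CD44LoKitNeg, as did the 3 stress factors. The calls rested on few libraries. Without CD44LoKitPos replicate 17 none of the 10 was called, and 65 of all 13529 genes were (Phgdh adjusted p = 0.019, Shmt1 0.0805, Shmt2 0.0816). Shmt1 was also lost with stage as a covariate (2.06, 0.0101), or without CD44LoKitPos replicate 18 (0.0118) or CD44LoKitNeg replicate 11 (0.0115) or 12 (0.0119), and Shmt2 without CD44LoKitPos replicate 18 (0.0169) or CD44LoKitNeg replicate 12 (0.0114) or 13 (0.0143). The 3 CD44LoKitNeg libraries from E11 have no CD44LoKitPos counterpart. In the E9.5 and E10 libraries alone, with stage as a covariate, 0 of the 10 genes were called (Phgdh 2.96, adjusted p = 0.0367; Shmt1 1.72, 0.105; Shmt2 1.27, 0.0692).

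Against CD44Neg, Phgdh was the single gene called in CD44LoKitPos, 1 of 10 beside 3.48% of all genes tested. The 10 CD44Neg libraries lay between 13.4 and 87.4 CPM, below the lowest CD44LoKitPos library at 197. The log2 fold change was 2.99 (SE 0.61, adjusted p = 0.00281 by edgeR). Without CD44LoKitPos replicate 17 or 18 its adjusted p was 0.0403 or 0.0104, and with stage as a covariate it was 0.0268, beside 0.00221 in the E9.5 and E10 libraries alone.

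In CD44High, the genes were compared with the other 3 populations. Against CD44LoKitNeg, 6 of 10 genes were higher (Asns, Phgdh, Psat1, Shmt1, Shmt2 and Mthfd2), where 16% of all genes tested were called, and 6 of 10 did not overlap (the same except Mthfd2, with Ddit3 added), beside 25.3%. Asns was 446, 88.5 and 398 CPM in CD44High, all above the highest CD44LoKitNeg library (log2 fold change 3.98, SE 0.55, adjusted p = 8.34e-06 by edgeR). Phgdh was 136, 174 and 329 CPM (3.47, SE 0.72, adjusted p = 0.000806). Psat1 was 463, 323 and 371 CPM (3.05, SE 0.75, adjusted p = 0.00388). The macrophage and proliferation markers given above move with these differences, and their part in them was not tested.

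The one-carbon enzymes were called together in this comparison. Shmt1 was 63.3, 108 and 75.6 CPM in CD44High (log2 fold change 2.53, SE 0.48, adjusted p = 0.000358), Shmt2 was 166, 156 and 263 CPM (2.01, SE 0.33, adjusted p = 8.15e-05) and Mthfd2 was 103, 23.4 and 134 CPM (2.82, SE 0.70, adjusted p = 0.00423). Replicate 21 was thus within the CD44LoKitNeg range for Mthfd2, and it was also the lowest CD44High library for Asns, Psat1, Psph, Shmt2 and the 3 stress factors. Psph, at 36.9, 24.2 and 49.9 CPM, missed the threshold (1.73, SE 0.52, adjusted p = 0.0158) and passed it with stage as a covariate (2.28, 0.00314), by DESeq2 (0.00597) and voom (0.00235), and without CD44LoKitNeg replicate 16 (0.00189). Ddit3, at 15.4, 8.24 and 31.7 CPM (2.03, SE 0.63, adjusted p = 0.0196, but 0.00472 by DESeq2), and Atf4, at 125, 121 and 248 CPM (1.03, SE 0.36, adjusted p = 0.0341), were not called by edgeR. Without CD44High replicate 22 they were 1.33 (0.233) and 0.53 (0.372).

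Single libraries decided part of these calls. Psat1 missed the threshold without CD44LoKitNeg replicate 12 (adjusted p = 0.0106) or CD44High replicate 20 (0.0198), 21 (0.01) or 22 (0.0124). Mthfd2 missed it without CD44LoKitNeg replicate 11 (0.0112) or 15 (0.0123), or CD44High replicate 20 (0.0235) or 22 (0.0403). Asns, Phgdh, Shmt1 and Shmt2 were called without each of the 9 libraries. Within E11 alone, 3 against 3 libraries, Asns, Phgdh and Shmt1 were called, with 1160 of all 11245 genes, while Psat1 (5.68, adjusted p = 0.0107), Shmt2 (2.11, 0.0142) and Mthfd2 (2.94, 0.159) were not.

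Against CD44Neg, Phgdh was the 1 gene of 10 called higher in CD44High, where 14.4% of all genes tested were called (log2 fold change 2.52, SE 0.61, adjusted p = 0.00356 by edgeR). Without CD44High replicate 21 or 22 its adjusted p was 0.0112 or 0.0481. All 3 CD44High libraries lay above all 10 CD44Neg libraries for 5 of 10 genes, Phgdh, Psat1, Psph, Shmt1 and Shmt2, beside 18.7% of all genes tested. Asns in replicate 21 was within the CD44Neg range, and its adjusted p was 0.0444 (1.34, SE 0.48). With stage as a covariate Asns (1.97, adjusted p = 0.00406) and Psph (2.19, adjusted p = 0.00323) were called as well, and Psph also by DESeq2 (0.00484) and voom (0.00797).

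Against CD44LoKitPos, none of the 10 genes was called by edgeR, DESeq2's Wald test or limma voom, 3 had an unadjusted p under 0.05, and 3.01% of all genes tested were called. No stage holds both populations, so that the population and the stage cannot be told apart in this comparison. Psat1 was the 1 gene without overlap, with 323 to 463 CPM in CD44High and 192 to 258 in CD44LoKitPos, beside 23.9% of all genes tested.

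The order of the mean levels was therefore not the same for all enzymes. Psat1, Psph, Shmt1 and Shmt2 were highest in CD44High, then CD44LoKitPos, CD44Neg and CD44LoKitNeg. Asns and Mthfd2 ran from CD44High to CD44Neg, CD44LoKitPos and CD44LoKitNeg, and Phgdh from CD44LoKitPos to CD44High, CD44Neg and CD44LoKitNeg. Of the neighbours in these orders, the steps that passed the test were CD44LoKitNeg against CD44Neg for Shmt2 and CD44High against CD44Neg for Phgdh. Levels can be set side by side between genes per kilobase of annotated exon, and their order changed with the population. In CD44Neg the mean was 51.4 CPM per kilobase for Atf4, 45.3 for Asns, 37.3 for Psat1, 35.9 for Shmt2 and 15 for Phgdh. In CD44LoKitNeg Atf4 was at 34.4 CPM per kilobase, above Shmt2 at 15.7 and Psat1 at 11. In CD44LoKitPos Phgdh was highest at 119.5 CPM per kilobase, before Psat1 at 53.1, Shmt2 at 45, Atf4 at 36.7 and Asns at 26.3. In CD44High Asns came first at 113.7 CPM per kilobase, then Psat1 at 90.7, Phgdh at 85.7, Atf4 at 69.9 and Shmt2 at 62.8. These orders of means were not tested.

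**Figure D3:**
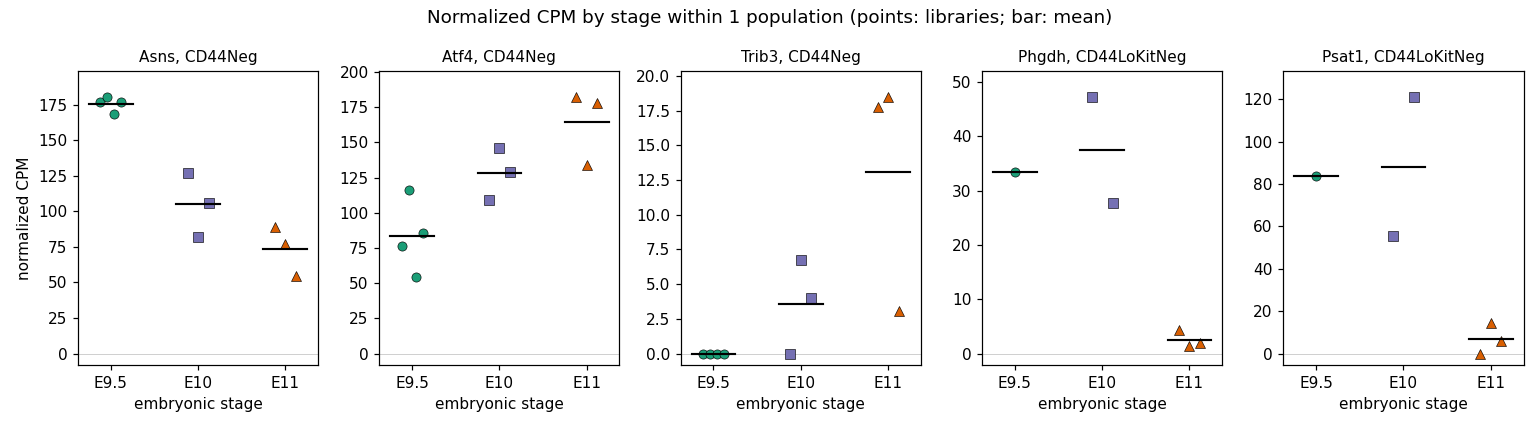
Normalized CPM (vertical axes) by embryonic stage (horizontal axes) of Asns, Atf4 and Trib3 in CD44Neg and of Phgdh and Psat1 in CD44LoKitNeg. Points are libraries and bars are means. Asns is lower and Atf4 higher at E11 than at E9.5, without overlap, and the 3 CD44LoKitNeg libraries from E11 lie below the 3 earlier ones for Phgdh and Psat1.

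Within CD44Neg, the stages were compared in a fit of its 10 libraries. Asns fell from E9.5 to E11, the 1 gene of 10 called, where 0.684% of all genes tested were called. It was 177, 180, 168 and 177 CPM at E9.5, 127, 82.3 and 106 at E10, and 88.7, 77.2 and 54.8 at E11. The 4 libraries from E9.5 differed little and stood above all later ones. The log2 fold change of E11 against E9.5 was -1.24 (SE 0.22, adjusted p = 0.00881 by edgeR). Leaving out any 1 of the 7 libraries ended the call, with adjusted p from 0.0142 without CD44Neg replicate 6 to 0.0507 without replicate 3 (0.0216 without replicate 1, 0.0412 without 2, 0.0336 without 4, 0.0156 without 5 and 0.0265 without 7), while the log2 fold change stayed between -1.41 and -1.08. The endothelial markers summed to 4894 to 5047 CPM at E11 and 3085 to 3750 at E9.5, with 2 of 7 called higher, Pecam1 (adjusted p = 0.000381) and Tie1 (0.00854). The neural markers summed to 30.4 to 43.7 CPM at E11 and 55.9 to 80.2 at E9.5. Rn45s took 15.2% to 17.9% of the counts at E11 and 1.92% to 13.8% at E9.5, also without overlap. The part of these values in the Asns values was not tested.

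Atf4 and Trib3 had values in the other direction that did not pass edgeR's threshold. Atf4 was 76.7, 116, 54.7 and 85.5 CPM at E9.5, 109, 146 and 129 at E10, and 182, 134 and 178 at E11 (log2 fold change 1.01, SE 0.24, adjusted p = 0.0375 for E11 against E9.5, and 0.00354 by DESeq2). Trib3 had 0 counts in all 4 libraries from E9.5, and 17.7, 18.5 and 3.1 CPM at E11. Set against the highest limit that 0 counts allow in an E9.5 library, 0.715 CPM, the E11 mean of 13.1 CPM was at least 18.3-fold higher (adjusted p = 0.0316 by edgeR, 4.68e-05 by DESeq2 and 0.00288 without a filter). At E10 it was 0, 6.71 and 4.01 CPM. The libraries from E9.5 and E11 did not overlap for 4 of 10 genes, Asns and Mthfd2 (lower at E11) and Atf4 and Trib3 (higher), beside 20.5% of all genes tested. E10 against E9.5 gave 0 of 10 called genes (0.0178% of all genes tested), with 3 at an unadjusted p under 0.05, and 1 by DESeq2 and 0 by voom. E11 against E10 also gave 0 (0% of all genes tested), with 1 at an unadjusted p under 0.05 and 0 by DESeq2 and by voom.

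Within CD44LoKitNeg, the E11 libraries were compared with those from E9.5 and E10. Of 9 genes tested edgeR called 0 (0.173% of all genes tested), 2 had an unadjusted p under 0.05, and DESeq2 called 1, Phgdh (2.78e-06), and voom 0. Trib3, at 0 counts in all 3 libraries from E11, did not pass the filter on low counts. Phgdh was 33.4 CPM at E9.5, 47.3 and 27.7 at E10, and 4.43, 1.42 and 1.86 at E11, so that the stages did not overlap (log2 fold change -3.77, SE 0.69, adjusted p = 0.0313 by edgeR). Psat1 was 83.8 CPM at E9.5, 55.3 and 121 at E10, and 0, 14.6 and 5.88 at E11 (-3.61, SE 1.13, adjusted p = 0.14), a value that was -4.85 without CD44LoKitNeg replicate 12 and -3.02 without replicate 11. These 2 of 9 genes did not overlap, beside 25.3% of all genes tested. The sum of the proliferation markers was 508 to 815 CPM in the 3 libraries from E11 and 1233 to 3124 in the 3 earlier ones, and 5 of its 8 genes lay lower at E11 without overlap. The blood markers summed to 4.49 to 12.1 CPM at E11 and 78.1 to 231.6 before, and Runx1, a transcription factor of blood formation, had 0 counts at E11 and was called lower (adjusted p = 0.00759). The erythroid markers summed to 32.2 to 61.3 CPM at E11 and 13.8 to 31.9 before. The endothelial markers summed to 6444 to 7389 CPM at E11 and 3306 to 4473 before. Rn45s took 17.4% to 19.2% of the counts at E11 and 7.29% to 11.1% before. All of these stood apart without overlap, and their part in the Phgdh and Psat1 values was not tested. Asns did not share this pattern, with 49.7 CPM at E9.5, 4.36 and 16.8 at E10, and 22.7, 12.8 and 11.9 at E11.

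**Figure D4:**
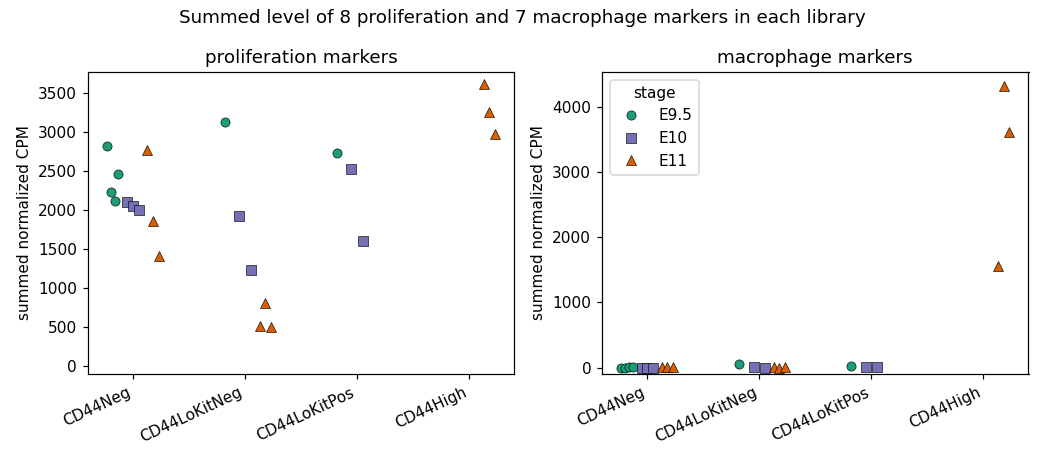
Summed normalized CPM (vertical axes) of 8 proliferation markers and 7 macrophage markers in each library, by population and stage. The 3 CD44LoKitNeg libraries from E11 have the 3 lowest proliferation sums, 508 to 815 CPM, and the 3 CD44High libraries have macrophage sums of 1564 to 4323 CPM, above at most 52.9 in the other 19.

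Whether the difference between CD44LoKitNeg and CD44Neg changed from E10 to E11 was examined with an interaction term in the 11 libraries from these stages. No gene of the 10 was called by edgeR, where 0.00806% of all genes tested were called, although 4 had an unadjusted p under 0.05. Phgdh had the larger value of the 2 serine synthesis genes described above, with an interaction of -3.96 on the log2 scale (SE 0.94, adjusted p = 0.156), beside -3.57 for Psat1 (SE 1.14, adjusted p = 0.277). The Psat1 value was -4.82 without CD44LoKitNeg replicate 12 and -2.91 without replicate 16. DESeq2 called 1 of the 10, Phgdh (-3.95, adjusted p = 0.00465), voom called 0, and edgeR without a filter called Phgdh (0.009) and Psat1 (1.35e-09). At E10 alone the fitted difference of Phgdh between the populations was 0.41, and at E11 alone it was -3.56.

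The neighbours of these enzymes in the same pathways were described by the same tests. Of 20 other folate and one-carbon enzymes, 19 were tested in CD44LoKitNeg against CD44Neg, and 2 were called, Mthfd1 and Tyms, both lower, a share close to the 10.2% of all genes. Mthfd1, the cytosolic counterpart of the mitochondrial folate enzymes, was 68.3 ± 21.4 CPM (SD, n = 10) in CD44Neg and 18.7 ± 11.7 (SD, n = 6) in CD44LoKitNeg (log2 fold change -1.86, SE 0.36, adjusted p = 0.00109). Tyms, thymidylate synthase, was lower by a smaller amount (-0.81, SE 0.21, adjusted p = 0.00843). In CD44LoKitPos against CD44LoKitNeg, 3 of 20 were higher beside 4.26% of all genes called. Among them were Mthfd1 (2.52, SE 0.42, adjusted p = 0.000801) and Ahcy, the gene of adenosylhomocysteinase (1.82, SE 0.36, adjusted p = 0.00313). In CD44High against CD44LoKitNeg, 5 of 20 were higher beside 16% of all genes, among them Mthfd1, Ahcy, the mitochondrial serine carrier Sfxn1 (2.10, SE 0.50, adjusted p = 0.00274) and, the fifth by size, Tyms (1.16, SE 0.25, adjusted p = 0.0013). Against CD44Neg, 2 of 20 were higher in CD44High, below the 14.4% share of all genes, among them the folate hydrolase Ggh, while in CD44LoKitPos edgeR, DESeq2 and voom called 0 of 20, with 4 at an unadjusted p under 0.05. The median log2 fold change of the list was -0.36 in CD44LoKitNeg against CD44Neg, 1.02 in CD44LoKitPos and 0.87 in CD44High against CD44LoKitNeg.

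Of the 11 genes next to asparagine, aspartate and glutamine, 9 were tested between CD44LoKitNeg and CD44Neg, and 2 were called beside 10.2% of all genes. Glul, glutamine synthetase, was lower in CD44LoKitNeg (-1.25, SE 0.32, adjusted p = 0.00863), and 1 of the 9 was higher. Asrgl1, an asparaginase, was higher both in CD44LoKitPos (2.42, SE 0.58, adjusted p = 0.0086) and in CD44High (2.18, SE 0.58, adjusted p = 0.00659) than in CD44LoKitNeg, and Glul was higher in CD44High (1.92, SE 0.39, adjusted p = 0.000725). The 2 comparisons share the CD44LoKitNeg libraries.

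The list of other known ATF4 targets held 20 genes. Between CD44LoKitNeg and CD44Neg 12 were tested and 2 called, beside 10.2% of all genes. Of these, Eif4ebp1, a brake on translation, was lower (-1.11, SE 0.22, adjusted p = 0.00122) and Nupr1, a stress-induced chromatin protein, was higher (adjusted p = 0.000801). Nupr1 was 0 to 3.13 CPM in CD44Neg, with 0 counts in 8 of the 10 libraries, and 4.16 to 58.9 in CD44LoKitNeg, the opposite direction to Asns. It was 26 to 142 CPM in CD44LoKitPos, where it was the 1 of 17 called against CD44Neg (adjusted p = 4.04e-05, beside 3.48% of all genes), and 7.82 to 36.6 in CD44High. The median log2 fold change of the 12 genes was -0.26. In CD44LoKitPos against CD44LoKitNeg 0 of 17 were called by edgeR, 1 by DESeq2 and 0 by voom, with 2 at an unadjusted p under 0.05, and in CD44High against CD44LoKitNeg 2 of 17 were, beside 16% of all genes, Xpot, which exports tRNA from the nucleus, higher (1.18, SE 0.32, adjusted p = 0.00821) and the lipoprotein receptor Vldlr lower. Vldlr was 5.41 to 36.5 CPM in CD44LoKitNeg and had 0 counts in 2 of the 3 CD44High libraries (adjusted p = 7.25e-05).

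The eIF2alpha kinases, their partner, the phosphatase subunits and Eif2s1 were 8 genes. They had 1 call by edgeR over the 11 comparisons (4 by DESeq2, 2 by voom and 16 at an unadjusted p under 0.05). The call was Eif2s1, the gene of eIF2alpha itself, which was higher in CD44High than in CD44LoKitNeg (1.18, SE 0.33, adjusted p = 0.00909), 1 of 8 beside 16% of all genes. Of 12 other genes of the unfolded protein response, 3 were called in CD44LoKitNeg against CD44Neg, beside 10.2% of all genes. Dnajb9, a co-chaperone of the endoplasmic reticulum, was higher in CD44LoKitNeg without overlap, at 238 to 481 CPM against 39.6 to 141 (2.03, SE 0.24, adjusted p = 1.33e-05). Sdf2l1, another protein of that compartment, was lower (-1.70, SE 0.33, adjusted p = 0.00114), as was the transcription factor Xbp1 (-0.71, SE 0.14, adjusted p = 0.00164). In CD44High against CD44LoKitNeg 3 of 12 were called, beside 16% of all genes, and the signs of Dnajb9 and Sdf2l1 were turned (-2.63, SE 0.42, adjusted p = 5.59e-05, and 2.23, SE 0.39, adjusted p = 0.000169), and Pdia4, a protein disulfide isomerase, was lower (-1.07, SE 0.28, adjusted p = 0.0062). These 2 comparisons share the CD44LoKitNeg libraries. In CD44LoKitPos against CD44Neg 4 of 12 were called, all lower, beside 3.48% of all genes. They were Xbp1 (-1.34, SE 0.23, adjusted p = 0.000508), Pdia4 (-1.31, SE 0.27, adjusted p = 0.00311) and the chaperones Hsp90b1 (-1.15, SE 0.23, adjusted p = 0.00266) and Hspa5 (-1.13, SE 0.27, adjusted p = 0.0099). In CD44High against CD44Neg 2 of 12 were called beside 14.4% of all genes, Pdia4 (-1.70, SE 0.28, adjusted p = 6.42e-05) and Xbp1 (-1.13, SE 0.22, adjusted p = 0.00049), both lower.

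The genes whose log2 CPM was most like each of 6 members over the 22 libraries were ranked by Pearson's r among 12949 genes. For Asns these were Eif3l (r = 0.92), Pgam1 (0.90) and Lsm4 (0.89). For Phgdh they were Snrnp25 (0.93), Nifk (0.90) and Gemin6 (0.89), and for Psat1 Ccnb1 (0.94), Oip5 (0.94) and Ncapg (0.93). Shmt2 was most like Mcm7 (0.91), Atp5b (0.90) and Atp5a1 (0.90), Mthfd2 most like Txnrd2 (0.89), Rrm1 (0.88) and Brms1 (0.87), and Atf4 most like Atp5d (0.82), Rpl28 (0.82) and Brk1 (0.77). Atf4 and Asns had r = 0.35 over the 22 libraries and -0.81 over the 10 CD44Neg libraries. These values describe libraries that share populations and stages, so that differences between groups enter them, and no test was made.

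The positions of the genes bear on how their reads can be counted. In GENCODE (GRCm38), Asns lies on the minus strand of chromosome 6 from 7675169 to 7693254 and Phgdh on the minus strand of chromosome 3 from 98313170 to 98339990, neither overlapping another annotated gene. A named pseudogene of Phgdh, Phgdh-ps1, is annotated elsewhere, and how the authors treated reads shared with a copy is not stated. Shmt2, on chromosome 10 from 127517123 to 127522444, overlaps Ndufa4l2 on the other strand, and Shmt1, on chromosome 11 from 60788104 to 60811718, overlaps Smcr8. Ddit3 overlaps Mars, Gm4189 and another gene model under its own symbol, Psph overlaps Cct6a, and Psat1 and Mthfd2 overlap a pseudogene and an uncharacterized transcript. The counts of these genes are uncertain to the extent that their reads fall in shared parts. The transcript over Mthfd2 and the other Ddit3 model lie on the same strand as these genes, where no strand setting could separate them. For the other overlaps, on the opposite strand, the setting is not stated.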

How the data were processed

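RNA was measured in 22 libraries from 4 sorted populations. Per the authors' methods, RNA was amplified with SMART-Seq2, adaptors were clipped with FASTX, and reads were mapped with RNA STAR and counted per gene with htseq-count. The deposited table holds raw, unnormalized counts for 24454 gene symbols. The submitters' processing notes name FastQC, HTSeq and mm10; the annotation, the strand setting and the handling of shared reads are not given in the sources used here. Poly(A) priming and amplification without molecular identifiers mean that a count of reads is not a count of molecules.

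Every column was matched to a library by its label. The labels of all CD44LoKitPos and CD44High libraries carry the letters KG, which those of CD44Neg and CD44LoKitNeg lack. What KG stands for is not stated, and it cannot be told apart from the population. Analysis used R 4.3.3 with edgeR 4.0.16 (filterByExpr, minimum count 10 and total 15; TMM; quasi-likelihood test, prior count 0.125; Benjamini-Hochberg adjustment, calls at 0.01), DESeq2 1.42.0 and limma 3.58.1, each tested on simulated data. CD44LoKitNeg was compared with CD44Neg over 16 libraries, other populations in 1 fit of 22, stages within CD44Neg over 10 and within CD44LoKitNeg over 6, and the interaction over 11. The SE of a log2 fold change was derived from the F statistic. Over 20 pairs of libraries of 1 population and stage, chi-square per degree of freedom was 17 to 85.2, so no pair examined held copies; CD44LoKitNeg replicate 14 and CD44LoKitPos replicate 19 were in no pair.

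The 10 genes and all gene lists were chosen with earlier results of these data known. Named are the 10 genes, at most the 4 largest called changes of each other list, and the 3 genes most like each of 6 members. Protein sequences and single-cell data were not used here, and some members of the lists are not reported here.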

Additional observations from a re-analysis of the deposited data

Results flagged for a closer look

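Among the 30 groups of 4 to 10 libraries examined for a library that stands apart from the others of its group by Dixon's criterion, 3 held one. The criterion flags about 1 in 20 independent groups of normal values. These groups pool stages, and the E9.5 groups of CD44Neg lie within its larger groups, so that this rate need not apply. Phgdh was 87.4 CPM in CD44Neg replicate 4, from E9.5, against 50.3 in the next of 10 libraries and 13.4 in the lowest. Shmt2 was 43.4 CPM in CD44Neg replicate 6, also from E9.5, against 95.9 in the next and 142 in the highest, and this library also stood apart in its genes detected, its Rn45s share and its chi-square against its replicates. It is the library through which Shmt2 overlaps between CD44Neg and CD44LoKitNeg. Psph was 27.7 CPM in CD44LoKitNeg replicate 16, from E10, against 12.1 in the next of 6 libraries and 3.41 in the lowest. For none of the 10 genes did the E11 and E10 libraries stand in opposite orders, without overlap, in CD44Neg and CD44LoKitNeg, nor did these populations at E10 and E11.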

How the results depend on the processing

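The number of the 10 genes called was recomputed under each alternative for all 11 comparisons, and the counts that moved by more than 1.5 times are given here. At an adjusted p under 0.05 it was 4 in CD44LoKitNeg against CD44Neg, 5 in CD44LoKitPos against CD44LoKitNeg, 3 in CD44High against CD44Neg, 3 in E11 against E9.5 within CD44Neg and 1 in the stages of CD44LoKitNeg. In CD44High against CD44LoKitNeg, with 6 called, the count stayed within that ratio, at 9 under 0.05, 8 by DESeq2 and 7 by voom. Over all genes the calls there were 3471 of 12949 under 0.05, 2730 of 12374 by DESeq2 and 2308 of 12949 by voom. DESeq2's Wald test gave 4 in CD44LoKitNeg against CD44Neg, 2 in CD44High against CD44Neg, 1 in E10 against E9.5 and 3 in E11 against E9.5 within CD44Neg, 1 in the stages of CD44LoKitNeg and 1 in the interaction. Calls over all genes rose too, in CD44LoKitNeg against CD44Neg from 1121 of 11022 to 2217 at 0.05, 1879 of 12418 by DESeq2 and 1370 by voom. In E11 against E9.5 they rose from 77 of 11250 to 352 at 0.05, 462 of 12272 by DESeq2 and 279 of 15401 without a filter. At 0.05 they were 1619 of 12949 in CD44LoKitPos against CD44LoKitNeg, 2917 of 12949 in CD44High against CD44Neg and 235 of 11010 in the stages of CD44LoKitNeg. DESeq2 called 2335 of 12374 in CD44High against CD44Neg and 260 of 11422 in E10 against E9.5. It called 606 of 11470 in the stages of CD44LoKitNeg and 137 of 11219 in the interaction. Limma voom gave 5 in CD44LoKitNeg against CD44Neg and 2 in CD44High against CD44Neg, the latter with 1801 of all 12949 genes. Without a filter, 2 were called in E11 against E9.5 and 2 in the interaction, the latter with 190 of all 15983 genes. Stage as a covariate left 0 in CD44LoKitPos against CD44Neg and gave 3 in CD44High against CD44Neg. Over all 12949 genes these 2 fits called 377 and 1896. For CD44LoKitNeg against CD44Neg, the E11 or E10 libraries alone gave 0 and 0; over all genes these fits called 376 and 1, against 1121. The E11 libraries alone gave 3 in CD44High against CD44LoKitNeg and 2 against CD44Neg, with 1160 of 11245 and 1055 of 10933 over all genes. The E9.5 and E10 libraries alone left 0 in CD44LoKitPos against CD44LoKitNeg, with 2 calls over all genes against 552.

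Leaving out 1 library at a time gave 2 to 3 called genes in CD44LoKitNeg against CD44Neg, 0 to 4 in CD44LoKitPos against CD44LoKitNeg, 0 to 1 in CD44LoKitPos against CD44Neg, 4 to 7 in CD44High against CD44LoKitNeg, 0 to 1 in CD44High against CD44Neg, and 0 to 0 in E11 against E9.5. In the same order, these fits called 875 to 1222, 65 to 687, 159 to 630, 1334 to 2176, 1340 to 1867 and 8 to 75 of all genes. Where leaving out a library left 1 in a group, that library was assumed to vary like the others.

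Of 714 fold changes under the alternatives for 35 results of the 10 genes, 5 changed sign, none of a called gene. The 714 include the looser threshold of 0.05, under which the fold change is that of the main fit and cannot change. The fold changes of genes in the other lists were not recomputed. In CD44LoKitNeg against CD44Neg, Phgdh was 0.41 and Psph 0.97 in the E10 libraries alone, and Psph ranged from -0.64 to 0.052 without 1 library. The causes were not tested. DESeq2's size factors, the counts without Rn45s and the counts thinned to the smallest library changed no count of called genes by more than 1.5 times. No paired analysis was possible because the replicate numbers are not shared between the groups. Libraries of 25 cells without molecular identifiers, and groups of 3, limit what could be called, and Trib3, Psph and Ddit3 rest on at most 205 counts per library.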
